A study of Mus musculus with 6 samples.

Results

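Macrophage markers were examined in the epididymal fat pad (eWAT), a visceral depot, after delivery of Lmo3 by a recombinant adeno-associated virus (rAAV). The set held 10 genes of 19938 on the array: Adgre1, Csf1r, Cd68, Mrc1, Cd163, Lyve1, Timd4, Folr2, Clec10a and Retnla. They were chosen by name, and each was read from its brightest probe set with exactly 1 gene symbol, as log2 of the deposited intensity. All mice were male C57BL6/J that entered a high-fat diet (HFD) when 6 weeks old and stayed on it for 12 weeks, and no chow-fed group was among the arrays. Controls had received rAAV-YFP, which encodes yellow fluorescent protein, and the other group had received rAAV-Lmo3, which encodes a LIM-domain transcriptional cofactor. Each group had 3 arrays, and each array carried RNA pooled from 2 mice. The vectors were of the Rec2 serotype, were injected into the fat pads on both sides after an initial period of HFD, and used the CMV enhancer with the chicken β-actin promoter, which is active in many cell types and not in adipocytes alone. One of the labels' protocols calls the control vector rAAV-LacZ where the titles have rAAV-YFP; the latter is kept.

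Adipose tissue macrophages are a mixed population. Long-lived resident cells sit along vessels, take up debris and renew locally under colony stimulating factor 1 receptor (CSF1R) signalling, and in mice many of them carry the hyaluronan receptor LYVE1, the phosphatidylserine receptor TIMD4, the folate receptor FOLR2 and the haemoglobin scavenger receptor CD163. During obesity, monocytes enter the depot and become macrophages that gather around dying adipocytes and take up lipid. The surface protein F4/80, encoded by Adgre1, and the lysosomal glycoprotein CD68 are carried by both kinds, whereas the C-type lectin encoded by Clec10a and the secreted protein RELMα encoded by Retnla are induced by interleukin-4.

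The groups were compared to learn how Lmo3 alters eWAT of obese mice, and the macrophage markers are read within that comparison. No marker differed between rAAV-Lmo3 and rAAV-YFP eWAT beyond the spread between pools. Of the 10 markers 9 were bright enough to be tested, and Timd4 was among the dimmest 40% of genes, below an intensity of 114. Limma with Benjamini-Hochberg adjustment called 0 of the 9, as it called 0 of 11963 genes (0%), and 0 of the 9 had an unadjusted p under 0.05 by limma or by the methods' t-test, whose adjusted calls over all genes also numbered 0. At an unadjusted limma p under 0.05, rAAV-Lmo3 pools had more RNA of 271 genes (2.27%) and less of 287 (2.4%). In none of the 10 markers were the groups without overlap, against 4.53% of all tested genes that lay wholly higher and 5.95% that lay wholly lower in rAAV-Lmo3. The difference, always log2 rAAV-Lmo3 minus rAAV-YFP, was above 0 for 6 of 10 markers and for 50.3% of all tested genes. Its median was 0.09 over the 10 markers and 0.0008 over all tested genes. In whole tissue, a change in the number of macrophages and a change in RNA per macrophage, in either direction, cannot be told apart.

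**Figure D1:**
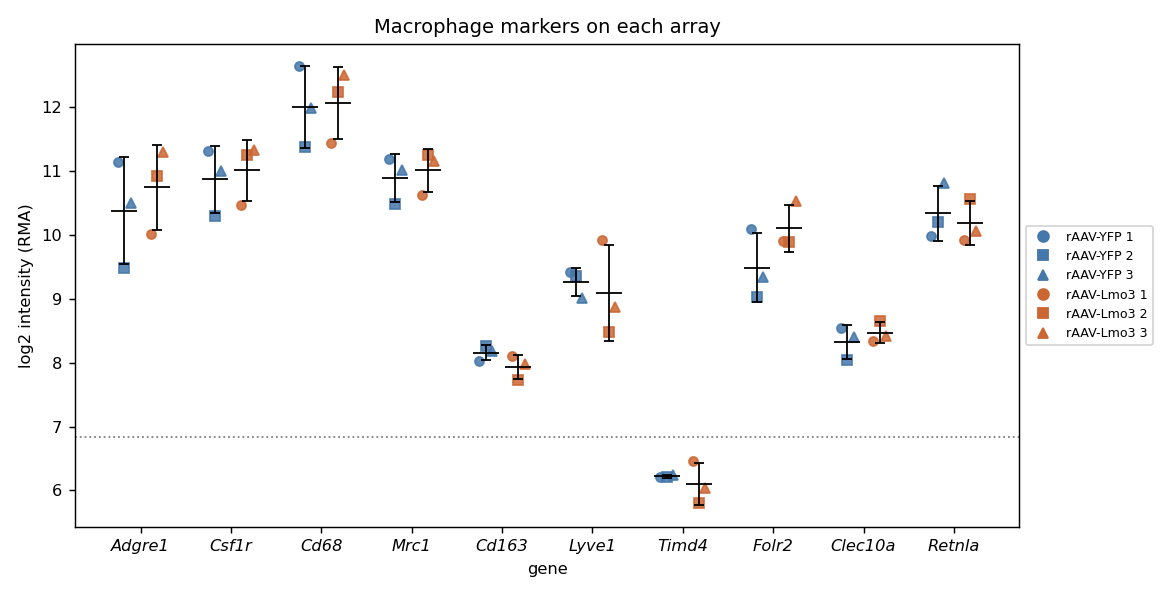
Log2 RMA intensity of each marker (y axis) on each of the 6 arrays, with rAAV-YFP in blue and rAAV-Lmo3 in orange, and the symbol giving the replicate number. Black bars are group means with SD (n = 3 pools), the dotted line is the intensity of 114 below which genes were not tested, and in every marker the groups overlap.

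Pools of the same group differed widely in these genes. The SD within groups was above the 90th percentile of all tested genes for 7 of 10 markers, and the median over all tested genes was 0.136 on the log2 scale. For Adgre1 the SD within groups was 0.75, and for Cd163 it was 0.16. The array rAAV-YFP 2 held the lowest value of 6 of 10 markers, whereas 25.6% of all tested genes were lowest there. It and rAAV-Lmo3 1 also stood apart over the whole array, since the mean of their correlations with the others was 0.988 and 0.986 against 0.990 to 0.991 for the rest, and array medians lay between 123 and 127.5. The labels give no batch for any array. The delivered gene did not check the labels, since the Lmo3 probe set read 25, 24 and 24 in rAAV-YFP 1 to 3 and 24, 26 and 24 in rAAV-Lmo3 1 to 3, far below the limit of 114. Whether its probes match the delivered sequence was not tested, so this reading says nothing about delivery.

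Adgre1 had the widest range of the markers that both kinds of macrophage carry. Its probe set 10446282 read 2268, 718 and 1453 in rAAV-YFP 1 to 3 and 1032, 1946 and 2520 in rAAV-Lmo3 1 to 3. The lowest and the highest pool thus belonged to different groups, but rAAV-YFP 1 exceeded both rAAV-Lmo3 1 and rAAV-Lmo3 2, and the highest array was 3.51-fold above the lowest. Log2 intensities averaged 10.38 ± 0.84 for rAAV-YFP and 10.75 ± 0.66 for rAAV-Lmo3 (SD, n = 3 each). The difference was 0.37 ± 0.48 (SE, 95% interval -0.78 to 1.51, limma adjusted p = 0.971). Without rAAV-YFP 2 it was -0.08, and without rAAV-YFP 1 it was 0.75, so single pools decided its sign and size.

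Csf1r encodes the receptor through which CSF1 and interleukin-34 maintain macrophages. Its intensity (probe set 10456071) was 2543, 1252 and 2054 in rAAV-YFP 1 to 3 and 1414, 2429 and 2563 in rAAV-Lmo3 1 to 3. The arrays stood in the same order as for Adgre1, from rAAV-YFP 2 as the lowest over rAAV-Lmo3 1, rAAV-YFP 3, rAAV-Lmo3 2 and rAAV-YFP 1 to rAAV-Lmo3 3. The difference was 0.14 ± 0.32 (SE, 95% interval -0.63 to 0.91, limma adjusted p = 0.987). It was -0.15 without rAAV-YFP 2 and 0.42 without rAAV-Lmo3 1.

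Cd68, the lysosomal marker, read 6403, 2654 and 4053 in rAAV-YFP 1 to 3 and 2761, 4847 and 5822 in rAAV-Lmo3 1 to 3 (probe set 10387536). Again rAAV-YFP 2 and rAAV-Lmo3 1 were the low pools, and here rAAV-YFP 1 was the highest. The difference was 0.06 ± 0.38 (SE, 95% interval -0.86 to 0.97, limma adjusted p = 0.994), and it ranged from -0.25 without rAAV-YFP 2 to 0.38 without rAAV-YFP 1.

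Mrc1 encodes the mannose receptor CD206, a marker of resident and alternatively activated macrophages. Its probe set 10469358 gave 2341, 1426 and 2059 in rAAV-YFP 1 to 3 and 1585, 2423 and 2285 in rAAV-Lmo3 1 to 3. The same pools were low as for Adgre1, and the other 4 lay within a narrow band. The difference was 0.12 ± 0.23 (SE, 95% interval -0.44 to 0.67, limma adjusted p = 0.984), with -0.09 without rAAV-YFP 2 and 0.31 without rAAV-Lmo3 1.

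Folr2, the folate receptor of resident perivascular macrophages, had the largest difference of the 10 markers in size. It read 1086, 523 and 651 in rAAV-YFP 1 to 3 and 953, 946 and 1472 in rAAV-Lmo3 1 to 3 (probe set 10566026). All rAAV-Lmo3 pools lay above rAAV-YFP 2 and rAAV-YFP 3, and rAAV-YFP 1 overlapped them. The difference was 0.61 ± 0.30, or 1.53-fold (SE, 95% interval of the log2 difference -0.10 to 1.33), with an unadjusted limma p of 0.0803, an adjusted p of 0.970 and an exact two-sided permutation p of 0.3, where 0.1 is the smallest that 3 pools against 3 can give. Its sign held when each array was left out in turn, between 0.39 without rAAV-YFP 2 and 0.91 without rAAV-YFP 1. In the latter setting the limma p was 0.00821 before and 0.940 after adjustment.

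Clec10a, the C-type lectin CD301a of alternatively activated macrophages and some dendritic cells, had a 1.54-fold range over the pools. Its intensity was 373, 262 and 339 in rAAV-YFP 1 to 3 and 323, 403 and 341 in rAAV-Lmo3 1 to 3 (probe set 10377782). Its arrays stood in the order of Mrc1, with rAAV-YFP 2 lowest and rAAV-Lmo3 2 highest. The difference was 0.14 ± 0.15 (SE, 95% interval -0.23 to 0.51, limma adjusted p = 0.971), and it came to -0.0062 without rAAV-YFP 2.

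Cd163, Lyve1 and Timd4 did not follow that order. Cd163 takes up haemoglobin bound to haptoglobin, and its probe set 10541644 read 261, 305 and 291 in rAAV-YFP 1 to 3 and 274, 211 and 251 in rAAV-Lmo3 1 to 3. The pools rAAV-Lmo3 2 and rAAV-Lmo3 3 were lowest, and rAAV-Lmo3 1 lay within the range of the controls. The difference was -0.22 ± 0.12 (SE, 95% interval -0.51 to 0.06), with a limma p of 0.106 before and 0.970 after adjustment and an exact permutation p of 0.2. It stayed below 0 when each array was left out in turn, from -0.31 without rAAV-Lmo3 1 (unadjusted limma p under 0.05, adjusted p = 0.831) to -0.12 without rAAV-Lmo3 2. With array weights it was -0.27 (unadjusted limma p under 0.05, adjusted p = 0.798).

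Lyve1 was read by probe set 10566934 at 684, 653 and 516 in rAAV-YFP 1 to 3 and at 970, 358 and 466 in rAAV-Lmo3 1 to 3. The 3 control pools lay between the highest pool, rAAV-Lmo3 1, and the remaining rAAV-Lmo3 pools, a 2.71-fold range. Across all 6 pools the difference was -0.17 ± 0.35 (SE, 95% interval -1.01 to 0.67, limma adjusted p = 0.984). Without rAAV-Lmo3 1 it was -0.59 (unadjusted limma p under 0.05, adjusted p = 0.831), without rAAV-Lmo3 2 it was 0.13, and without both arrays that stood apart it was -0.54 (unadjusted limma p under 0.05, adjusted p = 1). LYVE1 is also carried by lymphatic endothelium. Of the 7 lymphatic endothelium markers on the array only Flt4, Nrp2 and Pdpn were bright enough to be tested. The lineage factor Prox1 read 48, 46 and 53 in rAAV-YFP 1 to 3 and 54, 43 and 50 in rAAV-Lmo3 1 to 3, below the limit of 114. The summed intensity of the 7 ranged from 1751 to 2138 in rAAV-YFP and from 1642 to 2028 in rAAV-Lmo3, and the mean centred log2 value of the 3 tested genes was lowest, at -0.23, on rAAV-Lmo3 1, where Lyve1 was highest. The dim Prox1 went the other way, highest on rAAV-Lmo3 1 and lowest on rAAV-Lmo3 2, as Lyve1 was. Mmrn1, Reln and Sema3d, also too dim to be tested, were lowest on rAAV-Lmo3 2 too, but none of them was highest on rAAV-Lmo3 1. The part of lymphatic endothelium in the level of Lyve1 was not tested.

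Timd4 was dim throughout, at 74, 74 and 76 in rAAV-YFP 1 to 3 and 88, 56 and 66 in rAAV-Lmo3 1 to 3 (probe set 10375472). As for Lyve1, rAAV-Lmo3 1 was highest and rAAV-Lmo3 2 lowest, and the controls lay close together between them. The difference was -0.12 ± 0.16 (SE, 95% interval -0.50 to 0.26), with an adjusted limma p of 0.983 when no gene was filtered out. All its values lay below the intensity of 114 at which testing began.

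Retnla followed neither order. It read 1013, 1183 and 1803 in rAAV-YFP 1 to 3 and 968, 1518 and 1068 in rAAV-Lmo3 1 to 3 (probe set 10436095). The pools rAAV-YFP 3 and rAAV-Lmo3 2 were high and the other 4 lay between 968 and 1183. The difference was -0.15 ± 0.25 (SE, 95% interval -0.76 to 0.45, limma adjusted p = 0.980), and it was 0.09 without rAAV-YFP 3.

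**Figure D2:**
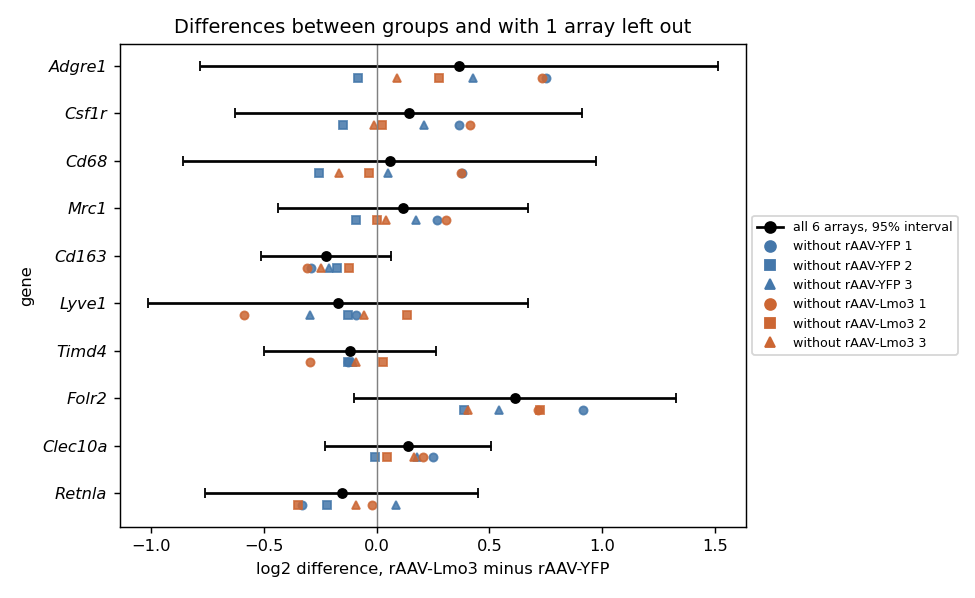
Log2 difference of each marker, rAAV-Lmo3 minus rAAV-YFP (x axis), with black points and 95% intervals from limma over all 6 arrays, and coloured symbols for the difference when the named array was left out. All intervals include 0, and 8 of 10 markers had leave-out values on both sides of 0, the exceptions being Cd163 and Folr2.

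Across the 6 pools the markers thus formed a pair of patterns, which were grouped after their values had been seen and are given as a description with no test. Adgre1, Csf1r, Cd68 and Mrc1 ran together, with Pearson r between 0.938 and 0.990 over their 6 pairs (Spearman rho 0.771 to 1, n = 6 arrays). Then the 2 arrays farthest from the median of the earlier gene of each pair, in the order of the opening list, were left out. In every pair with Adgre1, Csf1r, Cd68 or Mrc1 these were rAAV-YFP 2 and rAAV-Lmo3 1, whatever the other gene. Over the remaining 4 arrays r was 0.631 to 0.970. Lyve1, Timd4 and Cd163 had r between 0.631 and 0.931 among themselves (0.170 to 0.596 without 2 arrays), and all 3 were lowest on rAAV-Lmo3 2, where 11.5% of all tested genes were lowest, with rAAV-Lmo3 3 next. Lyve1 and Timd4 were also highest on rAAV-Lmo3 1, where 25.5% of all tested genes were highest. Between the 4 genes and the 3, r ran from -0.733 to -0.523 and, without 2 arrays, from -0.874 to 0.448, so the opposition rested in part on single arrays. The points of each correlation share the same 6 arrays and their normalization.

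Relative to each gene's own mean over the arrays, Adgre1, Csf1r, Cd68 and Mrc1 averaged 0.45, -0.71 and 0.0040 on rAAV-YFP 1 to 3 and -0.49, 0.29 and 0.45 on rAAV-Lmo3 1 to 3 (log2). For Cd163, Lyve1 and Timd4 the averages were 0.09, 0.14 and 0.02 on rAAV-YFP 1 to 3 and 0.37, -0.46 and -0.17 on rAAV-Lmo3 1 to 3. The pools with little of the first 4 markers were thus rAAV-YFP 2 and rAAV-Lmo3 1, from either group, and there the 3 others exceeded the 4 by 0.86 and 0.85. On rAAV-Lmo3 2 and rAAV-Lmo3 3 the same contrast was -0.75 and -0.62. Folr2 correlated with the 4 genes at r of 0.644 to 0.816 (0.609 to 0.981 without 2 arrays) and with the 3 at -0.608 to -0.153. Clec10a correlated with the 4 at 0.752 to 0.900 (0.135 to 0.805 without 2 arrays). For Retnla r with the 4 was 0.012 to 0.257. Without rAAV-YFP 2 and rAAV-Lmo3 1 it was -0.986 to -0.527, with the 2 pools high in Retnla, rAAV-YFP 3 and rAAV-Lmo3 2, still in. No steady relation was thus seen.

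**Figure D3:**
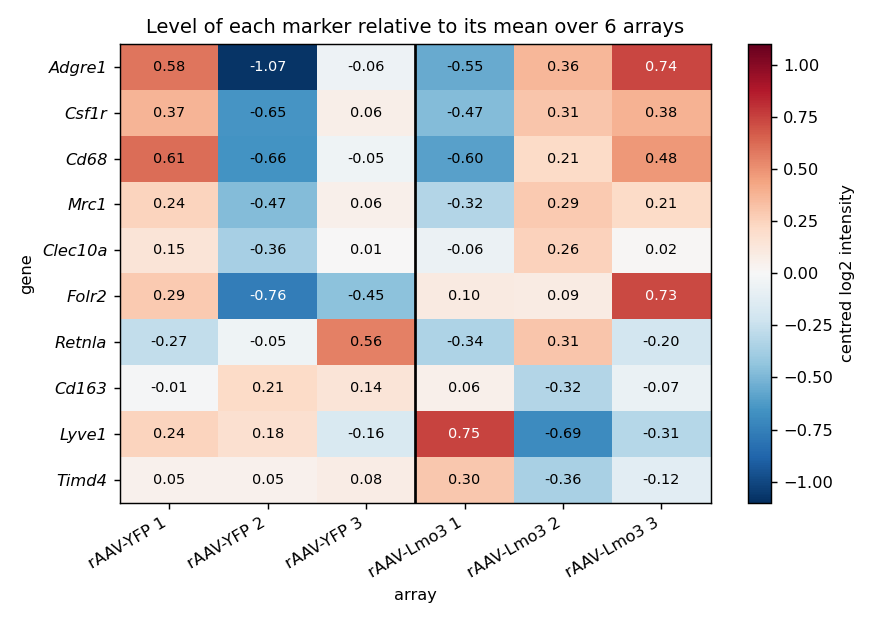
Log2 intensity of each marker (rows) on each array (columns) minus its mean over the 6 arrays, with red above and blue below that mean and the black line between groups. Adgre1, Csf1r, Cd68 and Mrc1 are low on rAAV-YFP 2 and rAAV-Lmo3 1, whereas Lyve1 and Timd4 are high on rAAV-Lmo3 1 and low on rAAV-Lmo3 2.

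**Figure D4:**
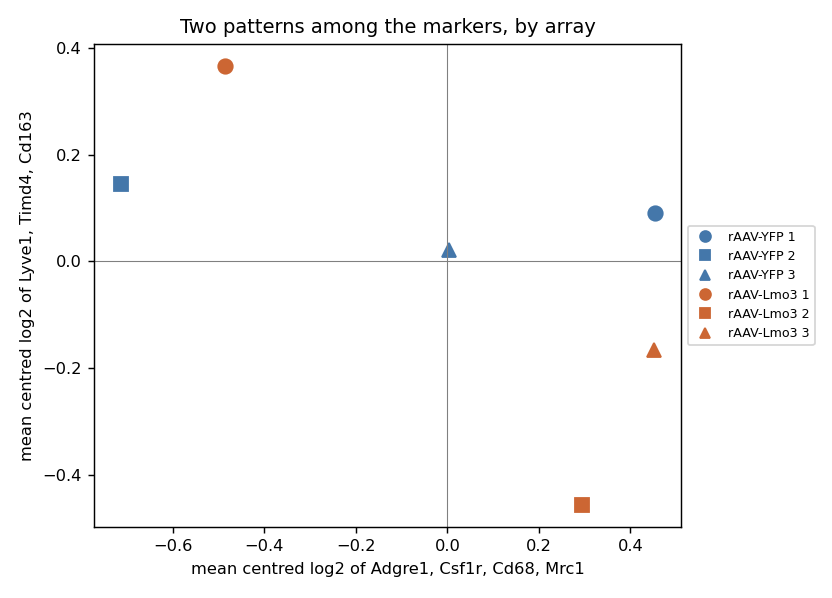
Mean centred log2 intensity of Adgre1, Csf1r, Cd68 and Mrc1 (x axis) against that of Lyve1, Timd4 and Cd163 (y axis), 1 symbol per array, with rAAV-YFP in blue and rAAV-Lmo3 in orange. The array rAAV-Lmo3 1 lies at -0.49 and 0.37, and rAAV-Lmo3 2 at 0.29 and -0.46, so pools of the same group lie at opposite corners.

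The regions before the transcription starts are shown for Mrc1 and Cd68, which ran together, for Timd4, which belonged to the other pattern, and for Retnla, which followed neither. They are the 250 bases upstream of the start in RefSeq windows of build GRCm38.p6, and such windows were found for 6 of the 10 genes (7 windows, 2 of them of Folr2). The Timd4 window ends at 46810798, past the first base of the gene given elsewhere in RefSeq, 46810786, so its last bases lie within the gene by that start. Lower case marks the sequence 5′ to 3′ on the gene's strand, and capitals mark matches to binding motifs of macrophage factors: AGGAAGT for PU.1, TTC and GAA with any 4 bases between them for STAT6, TGCTGA for MAF and TTGCNNAA for C/EBP, each searched on both strands.
Mrc1, chr2:14229164-14229413, strand +: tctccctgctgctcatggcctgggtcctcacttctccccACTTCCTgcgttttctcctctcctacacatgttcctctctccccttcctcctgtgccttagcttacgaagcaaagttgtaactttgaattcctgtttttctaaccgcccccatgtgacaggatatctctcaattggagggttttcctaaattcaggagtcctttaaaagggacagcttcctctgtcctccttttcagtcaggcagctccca
Cd68, chr11:69666171-69666420, strand -: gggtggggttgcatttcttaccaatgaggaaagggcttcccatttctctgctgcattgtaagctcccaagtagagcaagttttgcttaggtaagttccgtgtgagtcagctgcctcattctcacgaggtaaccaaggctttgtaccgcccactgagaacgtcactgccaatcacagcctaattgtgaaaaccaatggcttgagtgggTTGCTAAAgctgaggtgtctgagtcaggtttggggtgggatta
Timd4, chr11:46810549-46810798, strand +: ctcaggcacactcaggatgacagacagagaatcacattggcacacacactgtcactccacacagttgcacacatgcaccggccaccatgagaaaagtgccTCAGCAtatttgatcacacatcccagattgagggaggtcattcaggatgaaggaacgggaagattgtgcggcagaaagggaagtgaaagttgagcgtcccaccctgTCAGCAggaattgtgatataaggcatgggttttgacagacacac
Retnla, chr16:48842359-48842608, strand +: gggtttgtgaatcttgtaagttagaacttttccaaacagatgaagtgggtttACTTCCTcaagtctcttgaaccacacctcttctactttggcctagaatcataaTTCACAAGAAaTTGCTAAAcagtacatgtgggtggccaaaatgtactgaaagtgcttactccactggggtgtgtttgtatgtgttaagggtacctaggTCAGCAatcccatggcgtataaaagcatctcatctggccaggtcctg
PU.1 specifies the macrophage lineage, STAT6 carries the interleukin-4 signal, MAF acts in resident macrophages and C/EBP factors in myeloid cells and adipocytes. The PU.1 letters were found in the windows of Mrc1, Retnla and 1 of the 2 of Folr2 (3 of 7), and in 7.69% of all 32851 windows. The Mrc1 match lay 211 to 205 bases before the start, on the opposite strand. Timd4 held 2 MAF matches, and with both Folr2 windows and Retnla 4 of 7 windows held that motif, against 16.1% of all. The window of Retnla held all 4 motifs, including the single STAT6 match of the 7 windows at 145 to 136 bases before the start, where 5.85% of all windows held one. C/EBP letters were found in Cd68 and Retnla (2 of 7, against 9.56% of all). No matches overlapped in the printed windows, and a match is a description of the letters, not a bound site.

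Neither ligand of CSF1R passed adjustment. Both were lower in rAAV-Lmo3 without overlap between groups, as were 5.95% of all tested genes. Il34 read 261, 347 and 318 in rAAV-YFP 1 to 3 and 257, 239 and 226 in rAAV-Lmo3 1 to 3. Its difference was -0.35 ± 0.12 (SE, 95% interval -0.64 to -0.06), with a limma p of 0.0255 before and 0.970 after adjustment and an exact permutation p of 0.1, the smallest possible here. Csf1 read 851, 796 and 932 in rAAV-YFP 1 to 3 and 760, 784 and 673 in rAAV-Lmo3 1 to 3. The difference of Csf1 was -0.22 ± 0.10 (SE, 95% interval -0.45 to 0.02), with a limma p of 0.0654 before and 0.970 after adjustment and an exact permutation p of 0.1. Both stayed below 0 when each array was left out, Il34 between -0.47 and -0.26 and Csf1 between -0.27 and -0.15. With the macrophage transcription factors the list had 9 tested genes, of which 4 lay above and 5 below 0, with a median of -0.02. Groups also did not overlap for the transcription factor Klf4, named after its values were seen, at 394 to 411 in rAAV-YFP and 378 to 393 in rAAV-Lmo3, a difference of -0.06 ± 0.07 (SE, limma adjusted p = 0.971). The ranges of Klf4 nearly touched, and with the ligands 3 of the 9 genes were without overlap. Nr1h3, the lipid-sensing receptor LXRα, differed by 0.19 ± 0.11 (SE, limma adjusted p = 0.970). Spic, the factor of red pulp macrophages, was too dim to be tested.

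Other genes of resident macrophages held 0 calls after adjustment. Of 21 tested genes 13 lay above and 8 below 0, with a median of 0.08, 0 were higher and 1 was lower at an unadjusted limma p under 0.05. Mertk, a receptor for the uptake of apoptotic cells, was that gene, at 771, 715 and 625 in rAAV-YFP 1 to 3 and 573, 623 and 555 in rAAV-Lmo3 1 to 3. The groups did not overlap, and the difference was -0.27 ± 0.10 (SE), with a limma p of 0.0383 before and 0.970 after adjustment and an exact permutation p of 0.1. Igf1, a growth factor that resident macrophages and adipose stroma release, read 2458, 2450 and 2607 in rAAV-YFP and 2719, 2924 and 2765 in rAAV-Lmo3. Its groups did not overlap either, with a difference of 0.16 ± 0.08 (SE), with a limma p of 0.0703 before and 0.970 after adjustment and an exact permutation p of 0.1. Mertk and Igf1 were the 2 of 21 genes without overlap, against 5.95% of all tested genes wholly lower and 4.53% wholly higher. C1qc, a subunit of complement C1q, differed by 0.35 ± 0.29 (SE, limma adjusted p = 0.971), and by 0.065 without rAAV-YFP 2.

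Within that list some genes shared their highest array with Lyve1, and they are named after their values were seen. Cd209f, a lectin of resident macrophages, read 239, 290 and 221 in rAAV-YFP 1 to 3 and 463, 158 and 245 in rAAV-Lmo3 1 to 3. The ficolin gene Fcna read 233, 271 and 171 in rAAV-YFP 1 to 3 and 494, 175 and 250 in rAAV-Lmo3 1 to 3. Both were highest on rAAV-Lmo3 1, as were the lectin Cd209g at 221 and the chemokine Ccl24 at 208. Yet only 5 of the 21 genes (23.8%) were highest on that array, close to the 25.5% of all tested genes, and 7 of 21 (33.3%) were lowest on rAAV-YFP 2. Differences between groups were 0.08 ± 0.37 for Cd209f and 0.33 ± 0.38 for Fcna (SE, limma adjusted p = 0.993 and 0.971).

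The other pan-macrophage and myeloid genes had the pattern of Adgre1 in greater number. Of 22 tested genes 19 (86.4%) were lowest on rAAV-YFP 2 and 0 were highest on rAAV-Lmo3 1, against 25.6% and 25.5% of all tested genes. Between groups 17 lay above and 5 below 0, with a median of 0.12 and 0 genes at an unadjusted limma p under 0.05. The Fc receptor Fcgr1 read 370, 175 and 247 in rAAV-YFP and 293, 410 and 494 in rAAV-Lmo3, and its difference was 0.63 ± 0.30 (SE, limma adjusted p = 0.970). Aif1, which encodes IBA1, differed by 0.33 ± 0.16 and the lysozyme Lyz1 by -0.29 ± 0.14 (SE, limma adjusted p = 0.970 for each). Lipid-associated macrophage genes, which mark the cells around dying adipocytes, were lowest on rAAV-YFP 2 in 13 of 14 tested genes (92.9%), and 12 lay above and 2 below 0 with a median of 0.23. Fabp5, a fatty acid carrier, differed by 0.29 ± 0.17, Cd63 of late endosomes by 0.22 ± 0.16, and Plin2 of lipid droplets by 0.26 ± 0.25 (SE, limma adjusted p = 0.970, 0.970 and 0.971). Without rAAV-YFP 2 these came to 0.17, 0.076 and 0.045, and those of Fcgr1 and Aif1 to 0.37 and 0.16. These are genes with the smallest p of their lists, and the lists were not counted anew without that array. The markers Adgre1, Csf1r, Cd68 and Mrc1 turned to -0.080, -0.15, -0.25 and -0.090 without it. Again 0 of the 14 had an unadjusted p under 0.05.

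Clec10a and Retnla are targets of interleukin-4, whose own transcript and that of interleukin-13 were too dim to be tested, as were Arg1, Chil3, Chil4, Ccl17, Ccl22 and Il10. Il4 read 61 to 70 in rAAV-YFP and 65 to 73 in rAAV-Lmo3. The receptor subunit Il4ra read 752, 716 and 745 in rAAV-YFP 1 to 3 and 534, 875 and 665 in rAAV-Lmo3 1 to 3, with a difference of -0.12 ± 0.17 (SE, limma adjusted p = 0.971). Of 11 tested genes of the pathway 7 lay above and 4 below 0 (median 0.09), and 0 had an unadjusted p under 0.05. The closest were the coactivator Ppargc1b at 0.21 ± 0.09, the chemokine Ccl8 at 0.71 ± 0.47, which was 0.19 without rAAV-YFP 2, and the transcription factor Stat6 at -0.11 ± 0.12 (SE, limma adjusted p = 0.970, 0.970 and 0.971). Mgl2, a close paralog of Clec10a named after its values were seen, read 670, 835 and 1450 in rAAV-YFP 1 to 3 and 938, 1177 and 578 in rAAV-Lmo3 1 to 3. It was highest on rAAV-YFP 3 and rAAV-Lmo3 2, as Retnla was, and did not follow Clec10a. Whether the probe sets of these paralogs take up each other's RNA was not tested.

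Lists built around the functions of single markers gave no calls after adjustment. Among haemoglobin and iron handling genes around Cd163, 9 of 10 tested lay above 0 (median 0.19), opposite in sign to Cd163 itself, and 0 had an unadjusted p under 0.05. Haptoglobin, Hp, differed by 0.29 ± 0.20, haemopexin, Hpx, by 0.36 ± 0.18 and the biliverdin reductase Blvrb by 0.28 ± 0.16 (SE, limma adjusted p = 0.970 for each). Without rAAV-YFP 2, on which 6 of the 10 were lowest, 6 of 10 lay above 0 (median 0.098), with Hp at 0.092 and Blvrb at 0.10, and without rAAV-Lmo3 3 Hpx was at 0.21. Of the genes of hyaluronan synthesis and binding around Lyve1 only 4 were bright enough, split 2 and 2 with a median of 0.0040, and Stab2, Hyal2 and Cemip2 differed by 0.05 ± 0.10, 0.02 ± 0.08 and -0.01 ± 0.10 (SE). Around Timd4, 10 of 14 tested genes of phosphatidylserine recognition lay below 0 (median -0.06), with Mertk as the single one at an unadjusted p under 0.05. The bridging proteins Mfge8 and Gas6 differed by -0.33 ± 0.29 and -0.20 ± 0.19 (SE, limma adjusted p = 0.971 for each), but Mfge8 by -0.027 without rAAV-Lmo3 1 and Gas6 by -0.024 without rAAV-YFP 3. Inflammatory mediators split 5 and 5 (median 0.05), and Tnf, Ccl2 and Ccl3 differed by 0.18 ± 0.10, -0.32 ± 0.18 and 0.37 ± 0.28 (SE, limma adjusted p = 0.970 for each).

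**Figure D5:**
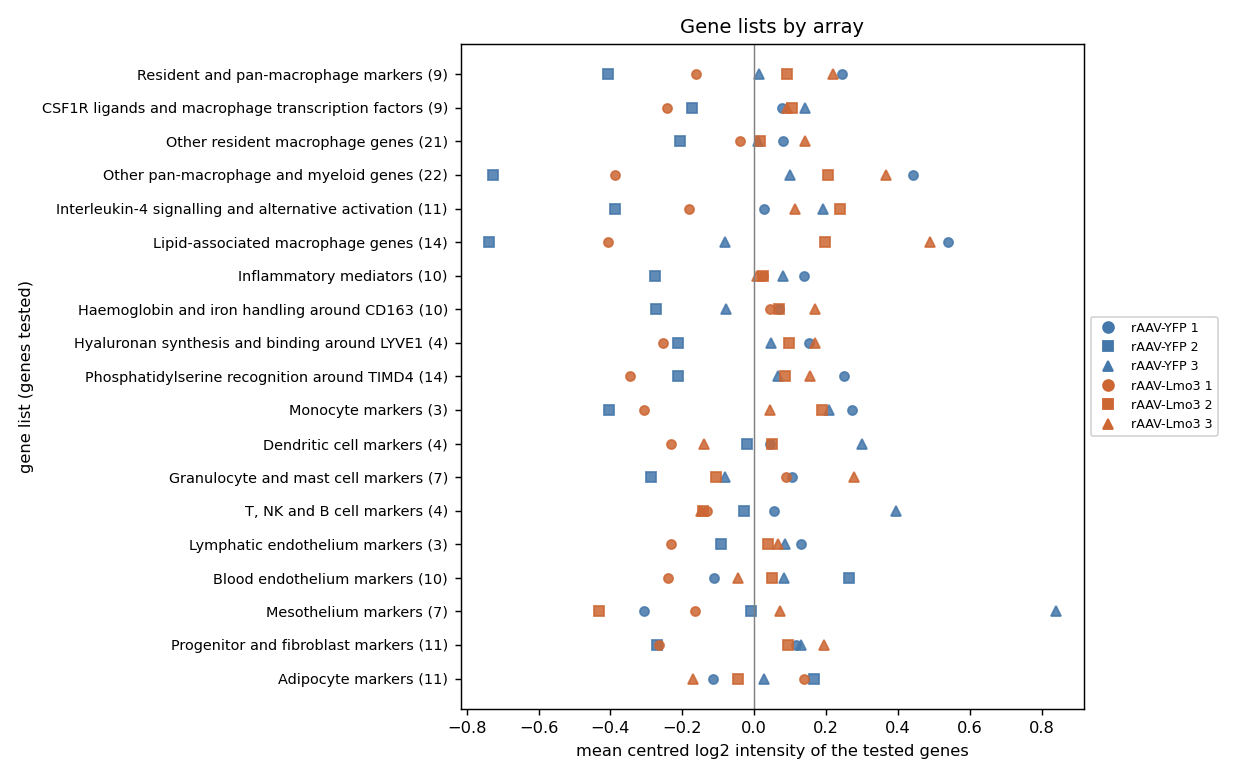
Mean centred log2 intensity of the tested genes of each list (x axis) on each array, with rAAV-YFP in blue and rAAV-Lmo3 in orange, and the number of genes tested in parentheses. In the lists of pan-macrophage and lipid-associated genes rAAV-YFP 2 lies lowest and rAAV-Lmo3 1 next, and the groups overlap.

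Markers of other cells that eWAT can hold were set beside these values. All 10 epididymis markers on the array were too dim to be tested, and all 11 adipocyte markers were bright enough, with a summed intensity of 77860 to 90564 in rAAV-YFP and 74818 to 89174 in rAAV-Lmo3. Where Adgre1, Csf1r, Cd68 and Mrc1 were lowest, the tested adipocyte markers were highest, at 0.17 on rAAV-YFP 2 and 0.14 on rAAV-Lmo3 1 as mean centred log2 values, against -0.17 to 0.03 on the other arrays. Cd163, Lyve1 and Timd4 averaged 0.14 and 0.37 on those arrays, their highest averages, but not each of the 3 was high on both. On rAAV-YFP 2 Lyve1 stood at 0.18, below its 0.24 on rAAV-YFP 1. Timd4 stood at 0.046 there, below its 0.085 on rAAV-YFP 3. On rAAV-Lmo3 1 Cd163 stood at 0.055, below its 0.21 on rAAV-YFP 2. On rAAV-YFP 1 the 3 averaged 0.09 and the adipocyte markers -0.11. The part of adipocyte RNA in the level of the 3 or of the first 4 was not tested. Between groups 4 of the 11 adipocyte genes lay above 0 (median -0.03), and Lep, which encodes leptin, differed by -0.28 ± 0.12, Lipe by -0.21 ± 0.13 and Pnpla2 by -0.07 ± 0.10 (SE, limma adjusted p = 0.970, 0.970 and 0.971).

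The monocyte, dendritic, T, NK and B cell, granulocyte and mast cell, and blood and lymphatic endothelium lists together had 31 tested genes. Of these 5 (16.1%) were lower at an unadjusted limma p under 0.05, against 2.4% of all tested genes, 0 were higher, and 0 passed adjustment. Macrophage lists are not in that count. Nor are the adipocyte (0 of 11 lower), mesothelium (0 of 7) and progenitor and fibroblast (0 of 11) lists. Among the macrophage lists, the pan-macrophage list had 0 of 22 lower, the lipid-associated list 0 of 14 and the other resident list 1 of 21. The share depends on which lists are joined and is a description with no test. Monocyte markers had 3 tested genes with 1 above 0 (median -0.12), and Ccr2, Vcan and Nr4a1 differed by -0.13 ± 0.50, -0.12 ± 0.24 and 0.10 ± 0.14 (SE). All 4 tested dendritic cell markers lay below 0 (median -0.15), and Ccr7 differed by -0.19 ± 0.08, Zbtb46 by -0.11 ± 0.08 and Cd209a by -0.49 ± 0.37 (SE, only Ccr7 at an unadjusted limma p under 0.05). Of 13 T, NK and B cell genes on the array only 4 were bright enough to be tested. All 4 lay below 0 (median -0.33). The summed intensity of the 13 was 1193 to 1697 in rAAV-YFP and 1173 to 1202 in rAAV-Lmo3. Cd2, Cd3e and Nkg7 differed by -0.37 ± 0.10, -0.42 ± 0.17 and -0.30 ± 0.15 (SE, Cd2 and Cd3e at an unadjusted limma p under 0.05). Cd2 read 129, 124 and 147 in rAAV-YFP 1 to 3 and 113, 100 and 97 in rAAV-Lmo3 1 to 3. All its rAAV-Lmo3 values lay below the intensity of 114, so it passed the filter only through the rAAV-YFP pools. Cd2 is among the 5 lower genes, the 4 genes of its list below 0 and the 2 of 4 without overlap. The filter favoured a lower value of Cd2 in rAAV-Lmo3, so in these counts it is no support for a difference. Of 7 tested granulocyte and mast cell markers 4 lay above 0, with Kit at -0.30 ± 0.10, S100a8 at 0.62 ± 0.31 and Siglecf at -0.14 ± 0.10 (SE, only Kit at an unadjusted limma p under 0.05), and the eosinophil genes Epx, Prg2, Ccr3 and Il5ra were too dim. Blood endothelium had 9 of 10 genes below 0 (median -0.15), with Esam, Cdh5 and Pecam1 at -0.33 ± 0.13, -0.33 ± 0.14 and -0.23 ± 0.11 (SE, only Esam at an unadjusted limma p under 0.05). As for the CSF1R ligands, the groups did not overlap for Ccr7, Zbtb46, Cd2, Cd3e and Kit, nor for Lep among the adipocyte genes, each with an exact permutation p of 0.1. That p always follows when 3 pools do not overlap with 3. These genes were 2 of 4 dendritic cell and 2 of 4 T, NK and B cell genes. The granulocyte and mast cell list had 1 of 7, the adipocyte list 1 of 11, and the monocyte and endothelium lists 0. All were lower in rAAV-Lmo3, as were 5.95% of all tested genes without overlap. Lymphatic endothelium had Flt4, Nrp2 and Pdpn at -0.15 ± 0.13, -0.12 ± 0.15 and 0.02 ± 0.20 (SE).

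Stromal lists also held no call. Mesothelium markers, which belong to the lining of the fat pad, were high on rAAV-YFP 3, at 0.84 as a mean centred log2 value, and all 7 tested lay below 0 (median -0.37; summed intensity of all 11 from 1344 to 2845 in rAAV-YFP and 1241 to 1673 in rAAV-Lmo3), with Msln, Upk1b and Krt8 at -0.37 ± 0.23, -0.57 ± 0.39 and -0.14 ± 0.10 (SE). Without rAAV-YFP 3 Msln was at -0.093 and Upk1b at -0.15. Retnla and Mgl2 were highest on that pool too, and the part of mesothelium in their level was not tested. Progenitor and fibroblast markers had 4 of 11 above 0 (median -0.03), with Lum, Pdgfra and Thy1 at 0.54 ± 0.29, 0.17 ± 0.16 and 0.08 ± 0.10 (SE).

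Genes outside the set that most resembled the mean of the 10 markers over the 6 arrays were Gpr65, Vwa5a, Slc8a1, Clta, S100a4, Plek, Cndp2 and Klhl6, with Pearson r from 0.994 to 0.999 (n = 6 arrays, the highest of all tested genes and so a description). Their arrays are the same as those of the markers. Gpr65 is a proton-sensing receptor and Plek, pleckstrin, a cytoskeletal protein, both known from leukocytes. Their differences between groups were small, from 0.05 ± 0.10 for Clta to 0.20 ± 0.30 for Plek (SE, limma adjusted p = 0.984 and 0.971).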

How the data were processed

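Groups were taken from the labels of the 6 Affymetrix Gene ST arrays. The deposited intensity values were summarised per probe set by the authors with RMA in Affymetrix Expression Console 1.1, on a linear scale rounded to whole numbers, which is coarse at the dim end. Here log2 was taken. Of 35556 probe sets 21789 had exactly 1 symbol in the platform annotation, 1621 several and 12146 none. The brightest probe set stood for each of 19938 genes. After removal of the dimmest 40% (mean log2 below 6.83), limma 3.58.1 (R 4.3.3; lmFit, eBayes, two-sided, Benjamini-Hochberg, threshold 0.05) tested 11963 genes. The arrays give no counts, so their number limits precision.

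The members and lists were chosen with earlier results of these data known. Named genes are the 10 markers, Csf1, Il34, Il4ra, Lmo3, up to 3 tested genes of each list with the smallest p, and the 8 tested genes most like the markers' mean. Klf4, Cd209f, Cd209g, Fcna, Ccl24, Mgl2 and dim marker genes were named after their values were seen. Replicates are separate pools of mice. Alternatives were other scalings, array weights, a trend and robust prior, the methods' t-test, a replicate block, other filters, the mean over probe sets, and leaving out arrays.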

Additional observations from a re-analysis of the deposited data

How the results depend on the processing

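Limma called 0 genes after adjustment under every alternative, as did the methods' t-test, and the smallest adjusted p of any gene in any alternative was 0.0640. With single arrays left out, 11 of 60 differences of the markers changed sign, in 8 of 10 markers. Of the other alternatives 60 values equalled the main difference, and the remaining 40 kept their sign. Most settings behind the 60 leave any difference as it is, and the mean over probe sets left that of every marker unchanged. Of 145 alternative tests of markers 5 reached an unadjusted p under 0.05, with 0.798 as their smallest adjusted p. The median difference of the markers ranged from -0.12 without rAAV-YFP 2 to 0.26 without rAAV-YFP 1. Without each array in turn, the count of genes at an unadjusted p under 0.05 ranged from 122 (without rAAV-YFP 2) to 404 (without rAAV-YFP 3) for higher and from 140 (without rAAV-Lmo3 3) to 339 (without rAAV-YFP 1) for lower genes. The higher count was also 167 without rAAV-YFP 1 and 143 without rAAV-Lmo3 3, and the lower count 141 without rAAV-YFP 2. With no filter on dim genes 458 genes were lower. Median centring turned the split to 317 higher and 216 lower. The labels number the replicates without saying whether the numbers pair the samples. Deviations of same-numbered pools from their group means correlated at -0.548, -0.398 and 0.263. With 3 arrays per group and the arrays that stood apart among them, these values cannot decide it. With a replicate block 0 genes passed adjustment, and 216 were higher and 237 lower at an unadjusted p under 0.05.

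The range of the difference with each array left out in turn, where it crossed 0, was -0.080 to 0.75 for Adgre1, -0.15 to 0.42 for Csf1r, -0.25 to 0.38 for Cd68, -0.090 to 0.31 for Mrc1, -0.59 to 0.13 for Lyve1, -0.30 to 0.030 for Timd4, -0.0062 to 0.25 for Clec10a and -0.35 to 0.086 for Retnla. Among other named genes it was -0.021 to 0.056 for Hyal2, -0.051 to 0.057 for Cemip2, -0.026 to 0.18 for Nr4a1, -0.29 to 0.17 for Vcan, -0.62 to 0.24 for Ccr2, -0.22 to 0.019 for Nrp2, -0.20 to 0.14 for Pdpn, -0.14 to 0.018 for Pnpla2, -0.31 to 0.049 for Il4ra, -0.020 to 0.038 for Lmo3, -0.34 to 0.44 for Cd209f, -0.11 to 0.30 for Cd209g, -0.080 to 0.67 for Fcna, -0.32 to 0.15 for Ccl24 and -0.35 to 0.20 for Mgl2. For the genes most like the markers it was -0.20 to 0.45 for Gpr65, -0.10 to 0.28 for Vwa5a, -0.14 to 0.26 for Slc8a1, -0.029 to 0.11 for Clta, -0.19 to 0.38 for S100a4, -0.14 to 0.46 for Plek, -0.090 to 0.25 for Cndp2 and -0.18 to 0.31 for Klhl6. Median centring gave 0.015 for Cemip2. Array weights gave 0.033 for Cemip2, 0.0045 for Il4ra, -0.20 for Cd209f and -0.054 for Cd209g. Without both arrays that stood apart, the difference turned to 0.035 for Cemip2, -0.087 for Pdpn, 0.032 for Pnpla2, 0.027 for Il4ra, -0.22 for Cd209f, -0.087 for Cd209g, -0.034 for Gpr65, -0.015 for Slc8a1, -0.019 for S100a4, -0.014 for Plek and -0.026 for Klhl6. Of named genes that kept their sign, differences also moved by over 1.5 times without rAAV-YFP 2 for Nr1h3 (0.098), Ccl3 (0.086), Lum (0.24), Pdgfra (0.098), Lipe (-0.12), Zbtb46 (-0.075) and Thy1 (0.0071). The same held without rAAV-YFP 3 for Cd209a (-0.14), Cd3e (-0.27) and Stab2 (0.0034). It held without rAAV-Lmo3 1 for Stat6 (-0.0045), S100a8 (0.98), Siglecf (-0.080), Flt4 (-0.063), Cdh5 (-0.21), Pecam1 (-0.14) and Lep (-0.17), without rAAV-Lmo3 2 for Nkg7 (-0.18), and without rAAV-Lmo3 3 for Ccl2 (-0.15) and Krt8 (-0.083). The cause of these turns and moves was not tested. Values near the dim end, as for Timd4 and for Cd2 in rAAV-Lmo3, are limited by background and rounding.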
